A study of Homo sapiens with 4 samples.

Results

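The genes of cholesterol synthesis, uptake and efflux were examined in 4 RNA-seq libraries of the human renal cell carcinoma line 786-0, an established line. The 33 genes were listed by role. There were 8 enzymes of the mevalonate route to squalene and 11 enzymes of the steps from squalene to cholesterol. A further 5 encode or control the sterol-regulated transcription factors, 5 belong to uptake, transfer and storage, and 4 to efflux. All 33 stood in the deposited table of 57659 genes, and 32 were among the 15640 genes tested. In 2 libraries the cells had been transfected with SLFN5 siRNA, against Schlafen 5 (SLFN5), and in the other 2 with control siRNA. The libraries are called SLFN5 siRNA 1 and 2 and control siRNA 1 and 2. Both groups are the same line after siRNA transfection. The time after transfection and the number of siRNA sequences are not given in the labels. Whether replicate libraries came from different cultures is not stated, so p-values measure a spread between libraries that may be technical. The series title names motility and invasiveness of these cells as the study's subject.

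Cells make cholesterol from acetyl-CoA through mevalonate, squalene and lanosterol, and also take it up from lipoproteins. When sterols in the endoplasmic reticulum are scarce, SCAP escorts the SREBP factors to the Golgi, where they are cut and freed to switch on genes of the route, while INSIG proteins hold the complex back when sterols are plentiful. When oxysterols build up, the LXR receptors switch on export through ABCA1 and ABCG1. Renal carcinoma of the clear cell type, from which this line was derived, is known for stores of cholesterol esters and other lipids.

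Most enzymes of the route were lower after SLFN5 siRNA, in the mevalonate part as well as the sterol part. None of the 5 genes that encode or control the SREBP factors passed the test with group as the only term. With library number added as a block, SREBF1 passed as lower (limma adjusted p = 0.0190). Of the 32 tested members, 16 (50%) fell, where 16.3% of all tested genes fell, and 2 (6.25%) rose, where 13.3% of all tested genes rose. The members were chosen with earlier results of these data known, so these counts describe the list and do not test it. In either direction, 29.6% of all tested genes were called. The numbers of members that fell or rose depended on which library was left out, and so did the numbers over all tested genes. A fit with a library left out has 1 library in that group, which is assumed to vary like the libraries of the other group, so its p-values here and below are a rough guide. Without the intensity trend in limma's variance, 4 members were lower (IDI1, LBR, HSD17B7 and STARD4), where 510 genes in all were lower. Over all tested genes, 2544 were lower and 2086 higher, a split that turned to 1823 lower and 2800 higher when recovered counts were scaled by library totals alone. Under that scaling 11 members were lower and 3 higher. Both SLFN5 siRNA libraries lay below both controls for 16 members, against 34.1% of all tested genes, and above both for 4 members, against 30.5% of all tested genes. The median log2 change was -0.40 over the members and -0.03 over all tested genes. The sizes ranged from a log2 change of -1.32 for LBR to 1.12 for PMVK. Changes are SLFN5 siRNA minus control on the scale log2(value + 1), with the standard error (SE), and a call means an adjusted p under 0.05 in limma's moderated test over all tested genes. The added 1 makes changes of genes with low values look smaller. Values are the authors' equalised counts, that is, read counts adjusted to a common library size. Each group has 2 libraries.

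Promoters of members came from RefSeq, build GRCh38.p14. Of the 33 members, 29 matched, with 39 promoters because 7 genes have more than 1 start. ACAT2, ABCG1, SQLE and FDFT1 had no entry. The 170 bases before the start are printed 5′ to 3′ on the gene's strand for genes that fell at least 2-fold and have a single start (STARD4, LBR, HSD17B7 and CYP51A1), for the enzyme that rose (PMVK), and for SREBF2. Capitals mark matches, on either strand, of the sterol regulatory element core TCACNCCAC, the CCAAT box and the GC box GGGCGG. Only the SREBF2 window holds a match of the first of these.
STARD4, chr5:111512536-111512705, reverse strand: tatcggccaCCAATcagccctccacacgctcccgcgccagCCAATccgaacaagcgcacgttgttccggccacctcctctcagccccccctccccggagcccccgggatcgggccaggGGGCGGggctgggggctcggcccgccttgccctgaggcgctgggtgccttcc
LBR, chr1:225428822-225428991, reverse strand: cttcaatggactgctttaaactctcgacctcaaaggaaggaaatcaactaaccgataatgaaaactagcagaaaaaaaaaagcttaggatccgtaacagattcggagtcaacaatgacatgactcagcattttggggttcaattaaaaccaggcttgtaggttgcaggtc
HSD17B7, chr1:162790532-162790701, forward strand: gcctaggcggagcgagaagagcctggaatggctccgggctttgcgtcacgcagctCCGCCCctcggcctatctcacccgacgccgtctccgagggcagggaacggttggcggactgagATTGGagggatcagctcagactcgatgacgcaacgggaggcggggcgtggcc
CYP51A1, chr7:92134478-92134647, reverse strand: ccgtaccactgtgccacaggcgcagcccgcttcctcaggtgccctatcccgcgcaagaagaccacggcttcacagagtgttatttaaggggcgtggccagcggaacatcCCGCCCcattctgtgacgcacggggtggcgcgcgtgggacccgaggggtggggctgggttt
PMVK, chr1:154936720-154936889, reverse strand: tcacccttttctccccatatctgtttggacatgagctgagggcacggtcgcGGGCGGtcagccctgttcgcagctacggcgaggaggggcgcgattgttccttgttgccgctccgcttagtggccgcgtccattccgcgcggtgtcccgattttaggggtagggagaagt
SREBF2, chr22:41832935-41833104, forward strand: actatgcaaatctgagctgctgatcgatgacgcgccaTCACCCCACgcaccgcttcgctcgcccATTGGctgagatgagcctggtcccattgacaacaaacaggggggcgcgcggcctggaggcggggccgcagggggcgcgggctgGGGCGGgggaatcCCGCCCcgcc

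In the STARD4 window, CCAAT begins 161 and 130 bases before the start and GGGCGG 52 bases before it. The HSD17B7 window holds CCAAT on the other strand 52 bases before the start. The CYP51A1 and PMVK windows hold a GC box and no CCAAT, and the LBR window holds none of the 3 motifs. The SREBF2 match of TCACNCCAC begins 133 bases before the start and is followed by CCAAT on the other strand at 106 bases. Over the 250 bases before each start, TCACNCCAC was found in 1 of 39 member promoters and in 0.883% of all 35116 promoters in the table. CCAAT was found in 22 of 39 member promoters (56.4%) and in 32.0% of all promoters, and GGGCGG in 34 (87.2%) and 42.6%. Among promoters of tested genes, CCAAT stood in 33.1% and GGGCGG in 63.0%. Counted by gene over any start, CCAAT stood in 11 of the 13 matched members that fell (84.6%) and in 9 of the 16 other matched members (56.2%). It stood in 42.2% of the 9326 tested genes with a promoter. GGGCGG stood in 11 of the 13 matched members that fell (84.6%), in all 16 others and in 75.3% of the tested genes. No bases were shared between matches of different motifs. These counts were not tested, and a match of letters is not a measured binding site.

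SLFN5 itself stood at 167 and 118 equalised counts in SLFN5 siRNA 1 and 2, against 420 and 353 in control siRNA 1 and 2, a log2 change of -1.45 (SE 0.21, limma adjusted p = 0.000524). Recovered depth was 17117659 and 14700669 counts in the SLFN5 siRNA libraries, and 31905328 and 13187517 in the controls, so control siRNA 1 was the deepest. PAX8, a marker of renal lineage, was at 3994 and 3392 after SLFN5 siRNA and 4129 and 3726 in controls, and the epithelial keratin KRT8 was at 7085 to 8040 after SLFN5 siRNA and 7611 to 7760 in controls. CA9, a hypoxia target often used as a marker of clear cell renal carcinoma, had at most 2 recovered counts in any library. Of the 7 tested markers of renal carcinoma lines, 2 fell and 1 rose, where 16.3% of all tested genes fell and 13.3% rose. NNMT fell by 0.90 on the log2 scale (SE 0.13, limma adjusted p = 0.000437) and VIM, a mesenchymal filament protein, fell by 0.46 (SE 0.12, limma adjusted p = 0.0140), a call lost whichever library was left out (adjusted p between 0.0554 and 0.0896). EPAS1, the hypoxia factor active in these tumours, rose by 0.55 (SE 0.18, limma adjusted p = 0.0358), but had an adjusted p of 0.287 without control siRNA 2 and 0.217 without SLFN5 siRNA 1. PAX2 was at 37.8 and 20.2 equalised counts after SLFN5 siRNA and 46.0 and 68.1 in controls and did not pass. Of 4 fibroblast markers 2 were tested and neither passed, with log2 changes of -0.19 for COL1A1 and -0.96 for LUM, and COL1A2 and DCN were at 3 or fewer recovered counts. The part of these marker changes in the results on members was not tested. None of the 7 leukocyte and endothelial markers read here reached the minimum for testing, and CD3E and PECAM1 had 0 counts in every library. In bulk RNA, fewer cells of a type and less RNA per cell cannot be told apart.

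The mevalonate route opens with ACAT2, the cytosolic thiolase that joins acetyl units. ACAT2 stood at 2311 and 1847 equalised counts in SLFN5 siRNA 1 and 2, against 5699 and 4375 in control siRNA 1 and 2. Both knockdown libraries were below both controls, at 41.3% of the control mean, with a log2 change of -1.27 (SE 0.15, limma adjusted p = 0.000118). The library kit keeps no strand, and in the GENCODE annotation ACAT2 shares 397 bases, 9.23% of its exon length, with TCP1 on the other strand. TCP1, a subunit of a protein-folding chamber, fell as well, with 6414 and 8185 equalised counts after SLFN5 siRNA against 11882 and 14068 in controls (log2 change -0.84, SE 0.14, limma adjusted p = 0.000925), so reads over those bases cannot be told apart. Annotations of SOD2-OT1 (33.9% of ACAT2's exon length) and SOD2 (26.5%) on that strand were not analysed here.

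HMGCS1, which makes the substrate of the rate-limiting reductase, was at 6100 and 4281 equalised counts after SLFN5 siRNA and at 8143 and 6415 in controls. The higher knockdown library stayed just below the lower control (log2 change -0.50, SE 0.16, limma adjusted p = 0.0386). The call was lost without control siRNA 1 (log2 change -0.33) and without SLFN5 siRNA 2 (log2 change -0.24). HMGCS1 was lower in library 2 of both groups, and leaving out 1 library unbalances the library numbers. With library number as a block, the limma adjusted p was 1.37e-05. MVK, which adds the first phosphate to mevalonate, had 727 and 606 equalised counts after SLFN5 siRNA and 1105 and 928 in controls. The groups did not overlap (log2 change -0.61, SE 0.15, limma adjusted p = 0.00963). The call was lost without control siRNA 1 (log2 change -0.48) and without SLFN5 siRNA 2 (log2 change -0.48). With library number as a block, the limma adjusted p of MVK was 4.95e-05.

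PMVK, which adds the second phosphate, moved the other way. It stood at 151 and 134 equalised counts in SLFN5 siRNA 1 and 2, against 57.4 and 72.9 in the controls. Both knockdown libraries were above both controls, by 2.19-fold in the means (log2 change 1.12, SE 0.26, limma adjusted p = 0.00711). PMVK was the sole enzyme of the route that rose in the fit with group as the only term. The call held when any single library was left out. MVD, which removes carbon dioxide to give the first isoprenoid, had 2248 and 1710 equalised counts after SLFN5 siRNA and 2603 and 2197 in controls. These groups overlapped and the gene did not pass in the fit with group as the only term (log2 change -0.29, SE 0.15, limma adjusted p = 0.165). The log2 change was -0.48 without SLFN5 siRNA 1 and -0.09 without SLFN5 siRNA 2. With library number as a block, MVD passed as lower (limma adjusted p = 0.00997).

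IDI1, which interconverts the isoprenoid building blocks, stood at 1816 and 1557 equalised counts after SLFN5 siRNA, against 4237 and 3477 in controls. All knockdown values lay far below the controls, at 43.7% of their mean (log2 change -1.19, SE 0.13, limma adjusted p = 8.98e-05). FDPS, the farnesyl diphosphate synthase that also feeds protein prenylation, had 3888 and 3019 equalised counts after SLFN5 siRNA and 4559 and 3630 in controls. Its groups overlapped and it did not pass in the fit with group as the only term (log2 change -0.25, SE 0.15, limma adjusted p = 0.230). With library number as a block, FDPS passed as lower (limma adjusted p = 0.0146). FDFT1, the squalene synthase that commits the route to sterols, had 2554 and 1931 equalised counts after SLFN5 siRNA against 3499 and 2772 in controls. The groups stood apart (log2 change -0.49, SE 0.15, limma adjusted p = 0.0320). The call was lost without control siRNA 1 (log2 change -0.32) and without SLFN5 siRNA 2 (log2 change -0.29). With library number as a block, the limma adjusted p of FDFT1 was 4.15e-05. In the fit with group as the only term, 5 of the 8 mevalonate enzymes fell, 1 rose and 2 did not pass. Their median log2 change was -0.49. Of all tested genes, 16.3% fell and 13.3% rose.

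**Figure D1:**
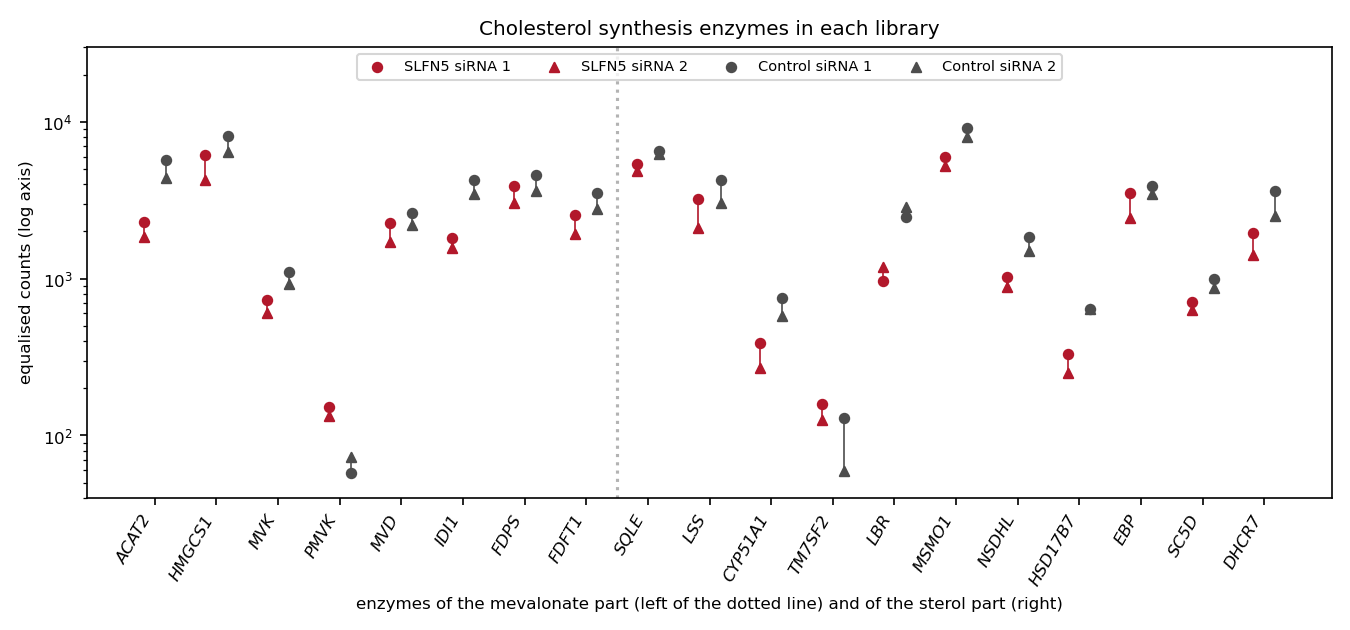
Equalised counts (log axis) of the 19 synthesis enzymes in each library, in the order of the route, with SLFN5 siRNA libraries in red to the left of the control libraries in grey, circles for library 1 and triangles for library 2. For 13 enzymes both red points lie below both grey points, for PMVK both lie above, and for MVD, FDPS, LSS, TM7SF2 and EBP the groups overlap. Over all tested genes, 34.1% lie below in this way and 30.5% above.

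In the sterol part, 8 of 11 enzymes fell, none rose and 3 did not pass in the fit with group as the only term. Their median log2 change was -0.61. Of all tested genes, 16.3% fell and 13.3% rose. SQLE, the epoxidase that is a second control point of the route, had 5413 and 4860 equalised counts after SLFN5 siRNA and 6521 and 6229 in controls. The groups did not overlap, but the change was the smallest called among the members (log2 change -0.31, SE 0.11, limma adjusted p = 0.0483). The call was lost without control siRNA 1 (log2 change -0.28), without control siRNA 2 (log2 change -0.35) and without SLFN5 siRNA 2 (log2 change -0.24). With library number as a block, the limma adjusted p of SQLE was 0.00202. LSS, which folds the epoxide into lanosterol, was at 3201 and 2110 equalised counts after SLFN5 siRNA and at 4264 and 3042 in controls. Its groups overlapped (log2 change -0.47, SE 0.19, limma adjusted p = 0.0872). The log2 change of LSS was -0.71 without control siRNA 2 and -0.77 without SLFN5 siRNA 1. It was -0.23 without control siRNA 1 and -0.17 without SLFN5 siRNA 2. LSS passed as lower with no filter on low values (limma adjusted p = 0.0248) and with library number as a block (limma adjusted p = 5.43e-05).

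CYP51A1, the demethylase that acts on lanosterol, stood at 386 and 269 equalised counts after SLFN5 siRNA, against 752 and 579 in controls. Both knockdown libraries lay below both controls, at 49.2% of the control mean (log2 change -1.03, SE 0.20, limma adjusted p = 0.00256). In GENCODE, 2844 bases, 79.4% of its exon length, are also annotated to AC000120.2 on the same strand, which was not analysed here, so reads of the pair cannot be told apart. The next step, a reduction of the sterol ring, can be made by either of a pair of enzymes, LBR and TM7SF2. LBR, which is also a receptor of the nuclear lamina, had 965 and 1185 equalised counts after SLFN5 siRNA and 2482 and 2866 in controls. This was the lowest level relative to control among the members, 40.2% (log2 change -1.32, SE 0.14, limma adjusted p = 5.96e-05). TM7SF2 had 158 and 126 equalised counts after SLFN5 siRNA and 129 and 59.4 in controls. Its groups overlapped and it did not pass in the fit with group as the only term (log2 change 0.68, SE 0.33, limma adjusted p = 0.150). The log2 change was 1.24 without control siRNA 1 and 0.13 without control siRNA 2. With library number as a block, TM7SF2 passed as higher (limma adjusted p = 0.0231). Per kilobase of exon, LBR stood at a mean of 204 equalised counts after SLFN5 siRNA and 509 in controls, and TM7SF2 at 41.7 after SLFN5 siRNA and 27.6 in controls, so LBR was the more abundant transcript in both groups.

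MSMO1, NSDHL and HSD17B7 together remove the methyl groups at carbon 4 of the ring. MSMO1, the oxidase, had 5978 and 5219 equalised counts after SLFN5 siRNA and 9143 and 8002 in controls. NSDHL, the dehydrogenase, had 1022 and 886 after SLFN5 siRNA and 1839 and 1499 in controls. HSD17B7, the ketone reductase, had 329 and 251 after SLFN5 siRNA and 639 and 637 in controls. All 3 were lower in both knockdown libraries than in either control. The log2 changes were -0.61 for MSMO1 (SE 0.12, limma adjusted p = 0.00242), -0.80 for NSDHL (SE 0.14, limma adjusted p = 0.00141) and -1.15 for HSD17B7 (SE 0.17, limma adjusted p = 0.000540). A pseudogene, HSD17B7P2, shares much of its sequence with HSD17B7 and was at 38.8 and 36.1 equalised counts after SLFN5 siRNA and 64.9 and 58.3 in controls (log2 change -0.70, SE 0.32, limma adjusted p = 0.126), so a share of reads between the pair is uncertain.

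The last steps move and reduce double bonds. EBP, the isomerase, had 3500 and 2435 equalised counts after SLFN5 siRNA and 3917 and 3443 in controls. These overlapped, and the gene did not pass in the fit with group as the only term (log2 change -0.33, SE 0.16, limma adjusted p = 0.135). The log2 change was -0.59 without SLFN5 siRNA 1 and -0.07 without SLFN5 siRNA 2. With library number as a block, EBP passed as lower (limma adjusted p = 0.00367). SC5D, the desaturase, had 707 and 636 equalised counts after SLFN5 siRNA and 998 and 872 in controls. Its groups stood apart (log2 change -0.48, SE 0.14, limma adjusted p = 0.0230). The call was lost without control siRNA 1 (log2 change -0.38) and without SLFN5 siRNA 2 (log2 change -0.40). With library number as a block, the limma adjusted p of SC5D was 0.000832. DHCR7, the reductase that makes cholesterol in the branch through SC5D, had 1944 and 1422 equalised counts after SLFN5 siRNA and 3621 and 2522 in controls. Both knockdown libraries were lower than either control, at 54.8% of the control mean (log2 change -0.86, SE 0.18, limma adjusted p = 0.00413).

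**Figure D2:**
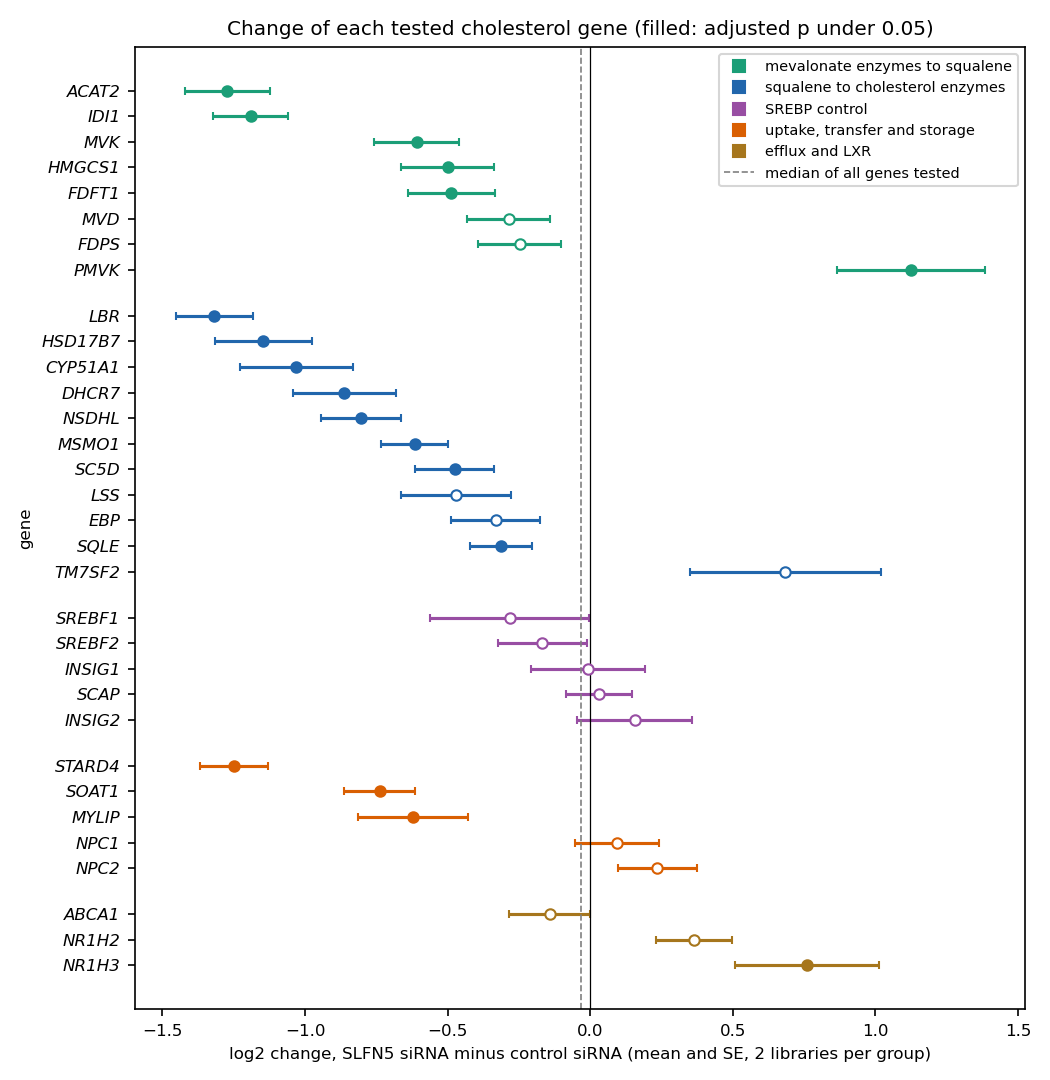
Log2 change (SLFN5 siRNA minus control siRNA, points) with its SE (bars) for the 32 tested members, grouped and coloured by role, with filled points for an adjusted p under 0.05 and a dashed line at the median of all tested genes, -0.03. The filled points lie on the left for synthesis enzymes and for STARD4, SOAT1 and MYLIP, PMVK and NR1H3 are the filled points on the right, and the 5 SREBP control genes are open.

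The genes that encode or control the SREBP factors gave no call in the fit with group as the only term. SREBF2, whose protein mainly drives cholesterol genes, had 5134 and 4150 equalised counts after SLFN5 siRNA and 6095 and 4414 in controls. SREBF1, whose protein mainly drives fatty acid genes, had 1805 and 924 after SLFN5 siRNA and 2041 and 1209 in controls. For both, the spread within each group exceeded the difference between the group means. This spread ran the same way in both groups. In library 2, SREBF1 was at 0.512 of library 1 after SLFN5 siRNA and 0.592 in controls. SREBF2 was at 0.808 after SLFN5 siRNA and 0.724 in controls. The log2 changes were -0.17 for SREBF2 (SE 0.16, limma adjusted p = 0.458) and -0.28 for SREBF1 (SE 0.28, limma adjusted p = 0.492). With library number as a block, SREBF1 passed as lower (limma adjusted p = 0.0190) and SREBF2 did not pass (limma adjusted p = 0.0947). Leaving out 1 library also unbalances the library numbers. In such fits the log2 change of SREBF1 varied in sign, at -0.66 without control siRNA 2 and -0.77 without SLFN5 siRNA 1. Its log2 change was 0.10 without control siRNA 1 and 0.20 without SLFN5 siRNA 2. SREBF2 had a log2 change of 0.06 without control siRNA 1.

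SCAP, the escort, had 1809 and 1836 equalised counts after SLFN5 siRNA and 1882 and 1690 in controls. INSIG1, itself a target of the SREBP factors, had 6554 and 3945 after SLFN5 siRNA and 5824 and 4480 in controls. INSIG2 had 181 and 209 after SLFN5 siRNA and 167 and 182 in controls. All 3 overlapped between groups, with log2 changes of 0.03 for SCAP (SE 0.12, limma adjusted p = 0.874), -0.01 for INSIG1 (SE 0.20, limma adjusted p = 0.985) and 0.16 for INSIG2 (SE 0.20, limma adjusted p = 0.608). The direction of INSIG1 turned on single libraries, with a log2 change of -0.37 without SLFN5 siRNA 1 and 0.36 without SLFN5 siRNA 2, and that of SCAP was -0.05 without control siRNA 2. With an SE of 0.20, a change of INSIG1 of the size called for SQLE would not have been detectable with these libraries, so these 5 genes are not shown to be unchanged.

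Among genes of uptake, transfer and storage, 3 of 5 fell, where 16.3% of all tested genes fell. STARD4, which carries cholesterol between membranes and is a known SREBP target, stood at 980 and 926 equalised counts after SLFN5 siRNA, against 2379 and 2157 in controls. The libraries of each group lay close together and far from the other group, at 42.0% of the control mean (log2 change -1.25, SE 0.12, limma adjusted p = 3.96e-05, the lowest among the members). SOAT1, which esterifies cholesterol for storage in droplets, had 2215 and 2506 equalised counts after SLFN5 siRNA and 3595 and 4296 in controls. Both knockdown libraries were lower than either control (log2 change -0.74, SE 0.12, limma adjusted p = 0.00117). MYLIP, a ubiquitin ligase induced by LXR that marks lipoprotein receptors for degradation, had 233 and 184 equalised counts after SLFN5 siRNA and 340 and 299 in controls. The groups stood apart (log2 change -0.62, SE 0.19, limma adjusted p = 0.0305). The call was lost without control siRNA 1 (log2 change -0.53), without control siRNA 2 (log2 change -0.71) and without SLFN5 siRNA 2 (log2 change -0.45). With library number as a block, the limma adjusted p of MYLIP was 0.00260.

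NPC1 and NPC2, which move cholesterol out of the lysosome, did not pass. NPC1 had 2608 and 1938 equalised counts after SLFN5 siRNA and 2256 and 1965 in controls, with overlapping groups (log2 change 0.09, SE 0.15, limma adjusted p = 0.677), and a log2 change of -0.12 without SLFN5 siRNA 1. It shares 604 bases, 5.98% of its exon length, with RMC1 on the other strand, which fell by 1.27 on the log2 scale (SE 0.15, limma adjusted p = 0.000108), so reads over those bases cannot be told apart. NPC2 had 1329 and 1066 equalised counts after SLFN5 siRNA and 1006 and 1016 in controls. Both knockdown libraries lay above both controls, yet the gene did not pass (log2 change 0.24, SE 0.14, limma adjusted p = 0.227).

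The efflux genes did not share a direction. ABCA1, the transporter that loads cholesterol onto apolipoproteins, had 18225 and 14476 equalised counts after SLFN5 siRNA and 20090 and 16007 in controls. The groups overlapped (log2 change -0.14, SE 0.14, limma adjusted p = 0.495). The log2 change was 0.02 without control siRNA 1 or without SLFN5 siRNA 2. ABCG1, the partner transporter, was close to 0, with 1 and 0 recovered counts after SLFN5 siRNA and 1 and 1 in controls, and was not tested. NR1H3, which encodes LXR alpha, stood at 117 and 117 equalised counts after SLFN5 siRNA, against 68.0 and 69.4 in controls. Both groups were tight and apart (log2 change 0.76, SE 0.25, limma adjusted p = 0.0414), but the call was lost whichever library was left out, with adjusted p between 0.0961 without SLFN5 siRNA 2 and 0.151 without control siRNA 2, and 0.144 without control siRNA 1 and 0.0985 without SLFN5 siRNA 1. NR1H2, which encodes LXR beta, had 1355 and 1184 equalised counts after SLFN5 siRNA and 1056 and 916 in controls. Its groups stood apart but it did not pass on equalised counts with group as the only term (log2 change 0.36, SE 0.13, limma adjusted p = 0.0601). On recovered counts it passed as higher when scaled by library totals alone (limma adjusted p = 0.0174) or by median-ratio factors (limma adjusted p = 0.0481). With library number as a block, NR1H2 also passed as higher (limma adjusted p = 0.00394).

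Of the 18 called members, 11 passed whichever library was left out: ACAT2, IDI1, CYP51A1, LBR, MSMO1, NSDHL, HSD17B7, DHCR7, STARD4, SOAT1 and PMVK. The 6 members that fell at least 2-fold (ACAT2, IDI1, CYP51A1, LBR, HSD17B7 and STARD4) are among these. In each of these fits the spread came from the group that kept both libraries. The library numbers were also no longer balanced between groups, so these fits do not measure stability. The share of all called genes that passed in every such fit was not counted, so the number of members cannot be compared with it.

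Levels per kilobase of exon, which allow genes to be compared, spanned a wide range. MSMO1 was the most abundant, with mean levels of 1936 equalised counts per kilobase after SLFN5 siRNA and 2964 in controls. After SLFN5 siRNA, the next levels were those of ABCA1 (1606 and 1275 per kilobase), INSIG1 (1796 and 1081), EBP (1453 and 1011), SQLE (1257 and 1129) and HMGCS1 (1297 and 910). In controls they were the same 5 genes: ABCA1 (1770 and 1410 per kilobase), HMGCS1 (1732 and 1364), EBP (1626 and 1429), SQLE (1515 and 1447) and INSIG1 (1596 and 1227). In controls these 5 overlapped one another. ACAT2 averaged 484 per kilobase after SLFN5 siRNA and 1172 in controls, and STARD4 168 after SLFN5 siRNA and 399 in controls. At the low end of the tested members, PMVK averaged 111 per kilobase after SLFN5 siRNA and 50.9 in controls, and NR1H3 25.8 after SLFN5 siRNA and 15.2 in controls. The enzyme that rose was thus also among the least abundant transcripts of the route.

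The members also differed between libraries of the same group. In SLFN5 siRNA 2, 27 of the 32 tested members (84.4%) were lower than in SLFN5 siRNA 1, against 49.7% of all tested genes. In control siRNA 2, 26 members (81.2%) were lower than in control siRNA 1, against 53.8% of all tested genes. Both held for 25 members (78.1%) and for 32.5% of all tested genes. The median log2 difference of library 2 minus library 1 was -0.32 over members in the SLFN5 siRNA group and -0.22 in controls, where all tested genes had medians of 0.00 and -0.02. Synthesis enzymes took part in this: 7 of 8 mevalonate enzymes and 10 of 11 sterol enzymes were lower in library 2 of both groups. SREBF1 in library 2 was at 0.512 of its level in library 1 after SLFN5 siRNA and 0.592 in controls. LBR, SOAT1, INSIG2 and NR1H3 were higher in library 2 of both groups.

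**Figure D3:**
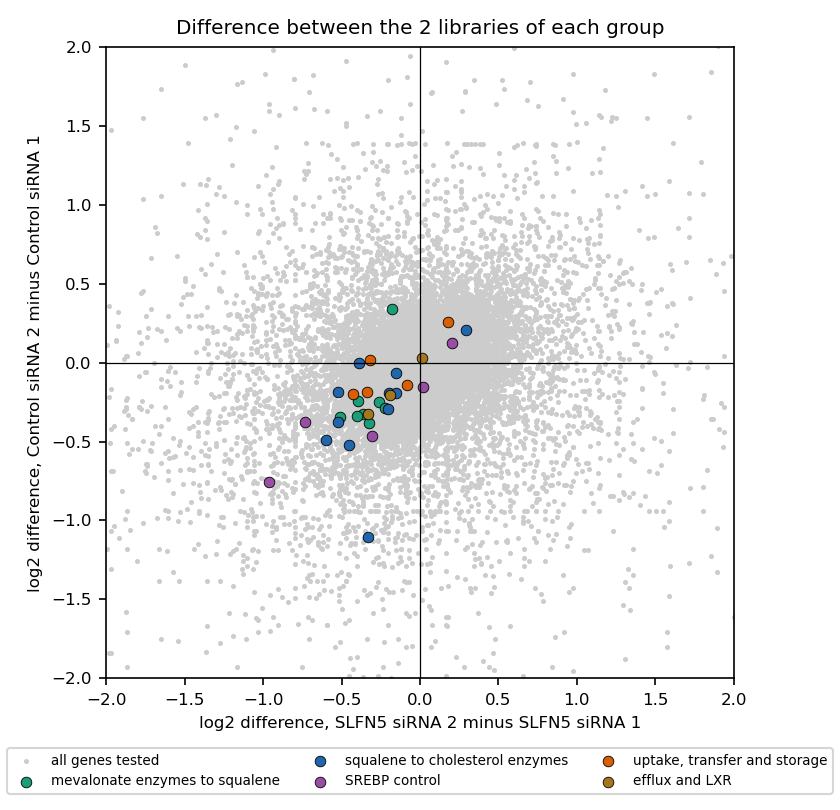
Log2 difference between library 2 and library 1 in the SLFN5 siRNA group (x axis) and in the control group (y axis), with all tested genes as small grey points and the 32 tested members coloured by role. Axes stop at 2 in either direction, which leaves 216 tested genes outside, and 25 members lie at the lower left, where both differences are negative.

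Neighbouring parts of sterol metabolism gave calls in both directions. Over 70 genes in 5 related lists, 60 were tested, of which 14 fell (23.3%) and 11 rose (18.3%), against 16.3% and 13.3% of all tested genes. The counts of these lists are given as a description, and shares this near to those of all genes are no result about the lists. Of the 15 genes that use isoprenoids for other products, 4 fell and 2 rose. PDSS2 and PDSS1 encode the partner subunits of the enzyme that makes the side chain of coenzyme Q. PDSS2 rose, with 245 and 219 equalised counts after SLFN5 siRNA and 87.3 and 85.5 in controls (log2 change 1.41, SE 0.22, limma adjusted p = 0.000676). PDSS1 fell, with 214 and 197 after SLFN5 siRNA and 382 and 453 in controls (log2 change -1.02, SE 0.18, limma adjusted p = 0.00141). Neither gene's groups overlapped, and they moved in opposite directions. ICMT, which methylates prenylated proteins, rose by 0.98 on the log2 scale (SE 0.11, limma adjusted p = 9.67e-05), and TRIT1, which isoprenylates transfer RNA, fell by 0.70 (SE 0.14, limma adjusted p = 0.00359).

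Among 14 genes of SREBP cleavage and of sterol-stimulated protein degradation, 3 fell and 2 rose. These are 21.4% and 14.3%, against 16.3% and 13.3% of all tested genes. ERLIN1 and ERLIN2 form a complex of the endoplasmic reticulum that binds cholesterol and takes part in that degradation. ERLIN1 had 1325 and 1690 equalised counts after SLFN5 siRNA and 589 and 780 in controls (log2 change 1.14, SE 0.17, limma adjusted p = 0.000464). ERLIN2 had 864 and 939 after SLFN5 siRNA and 409 and 413 in controls (log2 change 1.13, SE 0.14, limma adjusted p = 0.000169). Both rose by about the same factor, with groups far apart. RNF139, a sterol-regulated ubiquitin ligase, had 449 and 406 equalised counts after SLFN5 siRNA and 1132 and 1198 in controls (log2 change -1.45, SE 0.14, limma adjusted p = 3.69e-05). TMEM97, a sterol-binding protein that interacts with NPC1, had 1087 and 1127 after SLFN5 siRNA and 2072 and 1942 in controls (log2 change -0.86, SE 0.12, limma adjusted p = 0.000324). The authors deposited 2 entries named TMEM97, and these values are of the first entry tested. RNF139 and TMEM97 both fell without overlap. The proteases that cut the SREBP factors did not pass, with log2 changes of -0.14 for MBTPS1 and -0.05 for MBTPS2.

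Of 16 tested sterol transfer proteins, 2 fell (12.5%) and 3 rose (18.8%), against 16.3% and 13.3% of all tested genes. OSBPL5, a lipid transfer protein at contacts between endoplasmic reticulum and plasma membrane, had 723 and 643 equalised counts after SLFN5 siRNA and 205 and 137 in controls (log2 change 2.02, SE 0.20, limma adjusted p = 5.39e-05). This was the largest change among the members and the 5 related lists. OSBPL2 rose by 0.94 (SE 0.15, limma adjusted p = 0.000732) and OSBPL6 fell by 1.00 (SE 0.18, limma adjusted p = 0.00186), both on the log2 scale. OSBPL11 fell by 0.51 (SE 0.18, limma adjusted p = 0.0478), a call lost when any single library was left out, with adjusted p of 0.207 without control siRNA 1, 0.196 without control siRNA 2, 0.0707 without SLFN5 siRNA 1 and 0.114 without SLFN5 siRNA 2.

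Of 9 tested genes of lipoprotein receptors and ester hydrolysis, 4 fell (44.4%) and 2 rose (22.2%), against 16.3% and 13.3% of all tested genes. Their median log2 change was 0.03. LRP8, a lipoprotein receptor, had 1359 and 1236 equalised counts after SLFN5 siRNA and 3042 and 2744 in controls (log2 change -1.16, SE 0.12, limma adjusted p = 5.88e-05). NCEH1, which releases cholesterol from its esters, had 3935 and 4145 after SLFN5 siRNA and 7529 and 8287 in controls (log2 change -0.97, SE 0.11, limma adjusted p = 9.54e-05). Both fell, so that the enzyme that makes the esters (SOAT1) and one that splits them were each lower. LRP1, a large receptor of the same family, had 517 and 295 equalised counts after SLFN5 siRNA and 213 and 154 in controls (log2 change 1.11, SE 0.26, limma adjusted p = 0.00798). Its groups did not overlap, but without SLFN5 siRNA 1 the log2 change was 0.70 and the adjusted p 0.0676. LRPAP1, the chaperone of these receptors, rose by 0.55 on the log2 scale (SE 0.11, limma adjusted p = 0.00413).

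Among 6 tested LXR partners, targets and oxysterol enzymes, 1 fell (16.7%) and 2 rose (33.3%), against 16.3% and 13.3% of all tested genes. RXRB and RXRA encode receptors that pair with LXR on DNA. RXRB had 771 and 723 equalised counts after SLFN5 siRNA and 358 and 403 in controls (log2 change 0.97, SE 0.15, limma adjusted p = 0.000609). The authors deposited 6 entries named RXRB, and these values are of the first entry tested. RXRA had 2253 and 2032 after SLFN5 siRNA and 1530 and 1324 in controls (log2 change 0.59, SE 0.12, limma adjusted p = 0.00441). Both rose without overlap. LPCAT3, an LXR target that remodels phospholipids, had 607 and 379 equalised counts after SLFN5 siRNA and 924 and 646 in controls (log2 change -0.69, SE 0.22, limma adjusted p = 0.0374). The adjusted p of LPCAT3 was 0.168 without control siRNA 1 and 0.249 without SLFN5 siRNA 2.

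**Figure D4:**
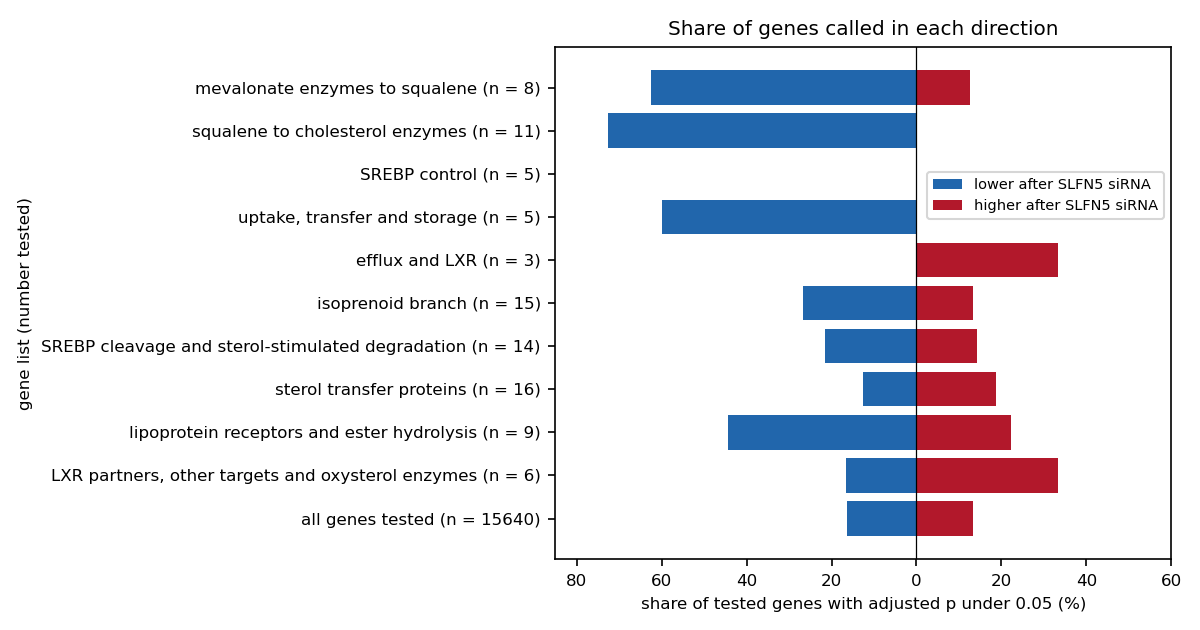
Share of tested genes that fell (blue, to the left) or rose (red, to the right) after SLFN5 siRNA at an adjusted p under 0.05, in percent, for the 5 role groups of members, the 5 related lists and all genes tested. The mevalonate enzymes (62.5%) and the sterol enzymes (72.7%) have the largest shares that fell, against 16.3% of all tested genes, and the SREBP control genes have no bar.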

How the data were processed

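Poly(A) RNA of 4 libraries, 2 per group, was prepared with the TruSeq v2 kit for single-end reads, per the labels' protocols. This kit does not mark strand. Genome build hg19 and the tool edgeR, used by the authors, are named in the submitters' processing notes. Which aligner, counter and annotation were used is not given in the sources used here. Per gene, the authors deposited a signal derived from read counts. Its values are not whole and lie where a quantile adjustment of each group's counts to a common library size would put them. Inverting this adjustment, with a common dispersion of 0.0162, gave whole counts for 230636 of 230636 values (tolerance 1e-06). The recovered totals were 13187517 to 31905328 per library.

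The planned count test was replaced, because the deposited values are not counts, by limma 3.58.1 in R 4.3.3 on log2(value + 1). A gene was tested where 2 or more libraries reached a value of 10, with group as the only term, an intensity trend (prior degrees of freedom 9.60, residual 2) and Benjamini-Hochberg adjustment over all 15640 genes at a threshold of 0.05. The script was tested on simulated data. Recovered counts served for depth and for scaling alternatives with voom. Exon lengths and overlaps came from GENCODE v29 and promoters from RefSeq (GRCh38.p14), matched by symbol. Groups came from the labels. The alternatives were other pseudocounts, filters and scalings, no trend, a replicate block and leaving out each library. The members and lists were chosen with earlier results of these data known. All members are accounted for. Of each related list, the genes past the test with the 2 largest increases and the 2 largest decreases are named, and the proteases MBTPS1 and MBTPS2 were added after their values were seen. A count of 0 allows a level of up to 3 counts, for counting error only.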

Additional observations from a re-analysis of the deposited data

How the results depend on the processing

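No called member changed sign under the alternatives run. Without the trend in the variance, 4 members were lower in place of 16, and over all genes 510 were lower and 672 higher in place of 2544 and 2086. With no filter on low values, 1 member was higher in place of 2. With each library left out in turn, 10 to 20 members were lower and 1 to 2 higher, and over all genes 1588 to 2341 were lower and 1346 to 1767 higher. The lowest counts over all genes came without control siRNA 2. Scaling by library totals alone moved the median log2 change of all genes to 0.08, against -0.03, and HMGCS1, FDFT1, SQLE, SC5D and MYLIP no longer passed. The other pseudocounts, the stricter filter, and TMM or median-ratio scaling left 15 to 16 members lower and 2 to 3 higher. The causes were not tested. The labels do not say what the number shared by libraries across groups marks. Same-numbered libraries' deviations from the group means correlated at 0.19 over all tested genes. Members moved together more often: 25 of 32 (78.1%) were lower in library 2 of both groups, against 32.5% of all tested genes. With a replicate block 21 members were lower and 4 higher, and over all genes 3695 lower and 3008 higher. Under the block MVD, FDPS, LSS, EBP and SREBF1 (adjusted p = 0.0190) passed as lower and TM7SF2 and NR1H2 as higher. TM7SF2, SREBF1, PMVK and NR1H3 had the largest SE among members, between 0.25 and 0.33, and with 2 libraries per group a gene that did not pass is not shown to be unchanged.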
